A study of Mus musculus with 4 samples.

Results

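Carboxylesterases are serine hydrolases that split ester bonds in drugs, other foreign compounds and lipids. Most act inside the endoplasmic reticulum (ER), where a serine, a histidine and an acidic residue form the active site and a short signal at the end of the protein holds the enzyme in the organelle. In the mouse the Ces1 and Ces2 groups have many tandem copies and are best known from liver, intestine, adipose tissue and lung. Ces1d, also called triacylglycerol hydrolase, releases fatty acids from stored triglyceride.

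The 9 genes described here, Ces1c, Ces1d, Ces1e, Ces1f, Ces1g, Ces2a, Ces2c, Ces2e and Ces2g, were taken by symbol from an expression table of 27179 genes. The table holds 20 carboxylesterase genes in all, so 11 others were left outside the set. Leukemia stem cells (LSCs), the cells held to sustain an acute myeloid leukemia (AML), had been sorted from mouse bone marrow as positive for yellow fluorescent protein (YFP), Mac-1 and c-Kit. There were 2 wild-type and 2 B7-H4-null samples, all on the C57BL/6 strain, and RNA sequencing was done once per sample. B7-H4, the product of Vtcn1, is a B7 family ligand that restrains T cells. How the leukemia was started, which cells lacked B7-H4, the age of the animals and any pooling of animals are not stated by the labels.

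The family was selected on this same contrast: Ces1d was already known to be lower in the B7-H4-null libraries when the genes were chosen. The differences of the members between genotypes are therefore given as descriptions, with no test, and nothing is supported by them. Levels are in RPKM, which scales reads by the length of the gene and the total of the library. The totals behind them were 9419425 to 10814448 reads per library, and 11814 to 11871 genes reached 1 RPKM. Vtcn1 had no read in wild type and a single read in each B7-H4-null library, too few to check the genotype labels. The 3 genes of the sort markers, Kit, Itgam and Itgb2, were above 1 RPKM in every library.

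All 9 members lie on chromosome 8 in GRCm38, in a pair of tandem clusters. The first cluster, from 93020214 to 93535879 (516 kb), holds Ces5a and 8 Ces1 genes, 5 of them members. The second, from 104734003 to 105150109 (416 kb), holds 11 genes of the Ces2, Ces3 and Ces4a groups, 4 of them members. How much sequence the copies share decides how well a read can be given to 1 of them, so the coding bases around the active-site serine are shown first. Each run is 45 bases, read 5′ to 3′ on the coding strand from the GENCODE M21 transcripts, with the codon of that serine in capitals.
Ces1d: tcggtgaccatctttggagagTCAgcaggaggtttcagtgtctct
Ces1c: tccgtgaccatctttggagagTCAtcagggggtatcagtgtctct
Ces1e: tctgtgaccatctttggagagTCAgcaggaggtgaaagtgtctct
Ces1f: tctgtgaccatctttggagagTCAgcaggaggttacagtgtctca
Ces1g: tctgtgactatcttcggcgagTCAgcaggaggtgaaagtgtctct
Ces2a: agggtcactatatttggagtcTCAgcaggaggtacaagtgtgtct
Ces2c: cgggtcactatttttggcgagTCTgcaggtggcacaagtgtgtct
Ces2e: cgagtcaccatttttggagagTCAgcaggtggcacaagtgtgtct
Ces2g: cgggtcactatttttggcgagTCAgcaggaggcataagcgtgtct

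The serine was located as the only Gly-any-Ser-any-Gly-Gly pattern in each of the 9 translated coding sequences. The run lay in exon 5 of all 9 genes. On the minus strand of GRCm38 it was at chr8:93187749-93187793 in Ces1d, chr8:93123106-93123150 in Ces1c, chr8:93217505-93217549 in Ces1e, chr8:93269980-93270024 in Ces1f and chr8:93328384-93328428 in Ces1g. On the plus strand it was at chr8:104737395-104737439 in Ces2a, chr8:104850753-104850797 in Ces2c, chr8:104929800-104929844 in Ces2e and chr8:104964978-104965022 in Ces2g. Against the Ces1d run, Ces1f differed at 3 bases, Ces1c and Ces1e at 4 and Ces1g at 7, while Ces2a, Ces2e and Ces2g differed at 11 and Ces2c at 13. The 3 bases of the serine codon itself were the same in all members except Ces2c, which uses another serine codon.

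The last 12 coding bases before the stop codon carry the retention signal and are shown because they separate the plasma form from the others. The final 6 bases, which code the last pair of residues, are in capitals.
Ces1d: catgttGAGCTC
Ces1c: acagaaCACAAA
Ces1e: cacactGAGCTG
Ces1f: cacaatGAGCTG
Ces1g: catgttGAACTG
Ces2a: catgcaGAGCTG
Ces2c: cacaggGAGCTT
Ces2e: cacaaaGAGTTG
Ces2g: cacaaaGAGCTA

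In 8 of the 9 members these bases code a His-any-Glu-Leu ending, the retention signal of this family. The exception was Ces1c (chr8:93099168-93099179, minus strand), known as a carboxylesterase of blood plasma. The end of Ces1d lay at chr8:93166258-93166269 on the minus strand and that of Ces2g at chr8:104968417-104968428 on the plus strand.

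Over the whole aligned coding sequence, the members fell into their 2 groups. Identity was 72.6 to 81.6% over the 10 pairs within Ces1, 81.3 to 85.2% over the 6 pairs within Ces2 and 56.6 to 58.7% over the 20 pairs between the groups. The closest member to Ces1d was Ces1g at 81.6%, followed by Ces1e at 79.6%.

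**Figure D1:**
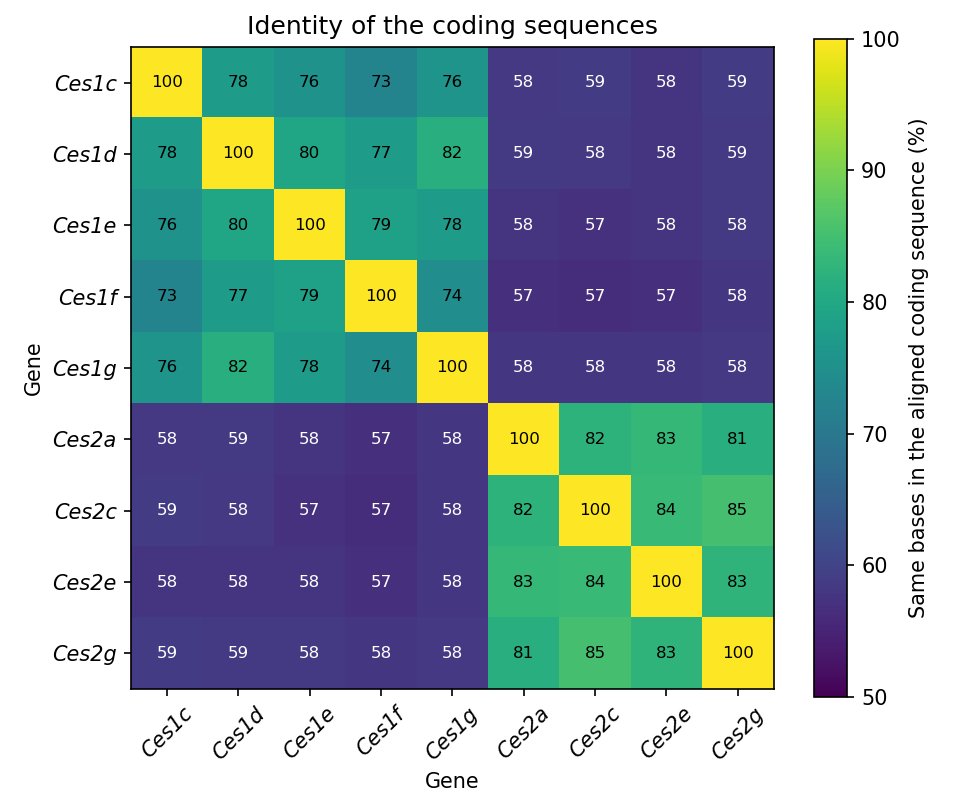
Identity between the coding sequences of the 9 members. Each square gives the percent of aligned coding bases that are the same in a pair of genes, with the same genes on both axes. The Ces1 pairs lie between 72.6 and 81.6%, the Ces2 pairs between 81.3 and 85.2%, and the pairs across the groups between 56.6 and 58.7%.

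Exact runs shared between transcripts bear on which gene a read is counted for. Of the 1955 windows of 50 bases in the Ces1d transcript, 25 (1.28%) were also present in a transcript of another gene (Ces1b, Ces1g or Ces1f), and at 100 bases none of 1905 was. For Ces2g the share was 4.02% at 50 bases and 0 of 2760 windows at 100 bases. Ces1e, Ces1f, Ces1g and Ces2e shared 1.60 to 3.36% of windows at 50 bases and none at 100 bases. The other 3 members are less distinct. Ces1c shared 17.0% of windows at 50 bases and 1.39% at 100 bases, and Ces2a shared 22.2% and 10.7%, most of them with the gene model Gm7208. Ces2c shared 42.2% and 16.0%, most of them with the pseudogene Ces2d-ps. The read length and the treatment of reads with several matches are not stated by the labels, so the values of Ces1c, Ces2a and Ces2c are uncertain in both genotypes.

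Ces1d was the only member with more than 100 reads in any library, and it was found at a moderate level in wild-type LSCs alone. Ces2g was present at a low level, Ces2e and Ces1g had a few reads, Ces1c and Ces1e had 1 read each over all libraries, and Ces1f, Ces2a and Ces2c had none. Reads were detected for 6 of the 9 members. Only 1 member, Ces1d, reached 1 RPKM in at least 2 of the 4 libraries, the level set for testing. It did so through the wild-type libraries alone, so a gene that enters in this way had to differ. The same holds for a gene that enters through the B7-H4-null libraries alone. Such genes are part of the counts without overlap given below, also over all genes tested.

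**Figure D2:**
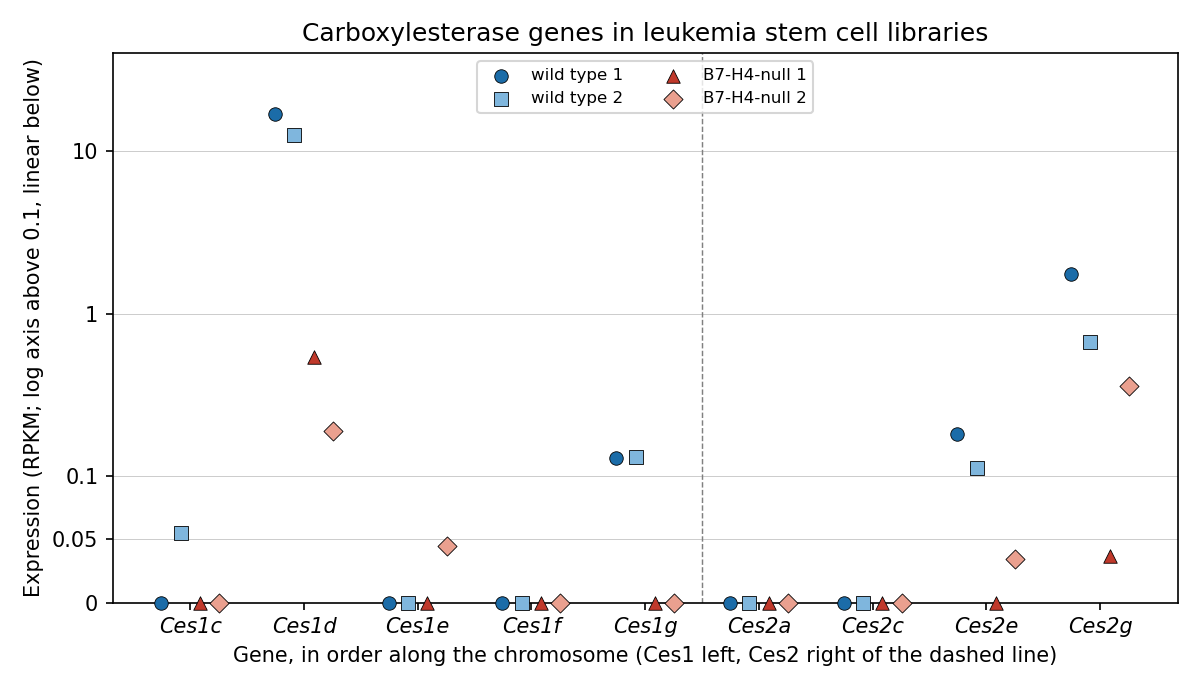
Expression of the 9 members in each library. The vertical axis is RPKM, logarithmic above 0.1 and linear below, and each point is 1 library (blue, wild type; red, B7-H4-null). Ces1d is at 16.9 and 12.6 RPKM in the wild-type libraries against 0.540 and 0.188 RPKM where B7-H4 was absent, while Ces1f, Ces2a and Ces2c are at 0 in all 4.

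Ces1d (gene ID 104158) spans 93166072 to 93197804 on the minus strand of chromosome 8 and has 14 exons. Its level was 16.9 RPKM in wild type replicate 1 and 12.6 RPKM in wild type replicate 2, against 0.540 RPKM in B7-H4-null replicate 1 and 0.188 RPKM in B7-H4-null replicate 2. These levels rest on 337 and 246 reads against 10 and 4 reads. Both wild-type libraries were high and both B7-H4-null libraries low, with no overlap. In bulk samples like these, fewer cells that express a gene and less RNA per cell cannot be told apart.

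The mean of Ces1d was 14.7 ± 3.04 RPKM in wild type (SD, n = 2), against 0.364 ± 0.249 RPKM (n = 2) without B7-H4. The pooled reads, 583 against 14, gave a level 41.97-fold higher in wild type, with an exact 95% interval of 24.8 to 77.2 that covers counting error only. On the log2(RPKM + 1) scale the difference was −3.53, B7-H4-null minus wild type. This scale understates the change of a gene near 0. Across all genes tested, 12 of 12107 (0.0991%) passed an adjusted p of 0.05 in limma, 5 higher and 7 lower, and Ces1d is 1 of those 7. Since that call chose the family, nothing is read from it here. It was lost without a filter on low values and when either B7-H4-null library was left out.

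The order of the 4 libraries for Ces1d was wild type 1, wild type 2, B7-H4-null 1 and B7-H4-null 2. By reads, the ratio between the wild-type libraries was 1.34 (95% interval 1.13 to 1.59). The step from wild type 2 down to B7-H4-null 1 was 23.3-fold (12.5 to 49.3). The B7-H4-null libraries differed by 2.87-fold, with an interval of 0.828 to 12.5 that includes no difference, so their order is not resolved at this depth. Ces1d stood above 80.9% and 77.0% of the 27179 genes in the wild-type libraries and above 53.4% and 48.4% in the B7-H4-null libraries. A single read in Ces1d was worth 0.0470 to 0.0540 RPKM, so the B7-H4-null values were above 0 by a handful of reads.

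The other Ces1 members were at or near the limit of detection in all libraries. Ces1g (gene ID 12623, 93302369 to 93337209), a liver enzyme of lipid metabolism, was at 0.129 and 0.132 RPKM in the wild-type libraries and at 0 in both B7-H4-null libraries. That is 3 reads in each wild-type library and none in B7-H4-null. Both genotypes are thus at or under the floor of 3 reads per library. Its read numbers depend on the gene length behind the RPKM, taken as 2289 bases, the multiple of the smallest length that gives whole reads (763) nearest to the longest coding transcript (2388).

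Ces1c had 1 read, in wild type 2 (0.0547 RPKM). Ces1e, also called egasyn, which holds beta-glucuronidase in the ER, had 1 read, in B7-H4-null 2 (0.0446 RPKM). Ces1f, a triglyceride hydrolase of liver, had no read in any library. A count of 0 allows up to 3 reads, which for Ces1f is 0.144 to 0.165 RPKM by library. No fold is given for Ces1c, Ces1e, Ces1f or Ces1g, which are at or under that floor in both genotypes.

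Ces2g (gene ID 72361, 104961596 to 104969537, plus strand, 12 exons) was the best represented Ces2 member. Its level was 1.76 and 0.669 RPKM in wild type against 0.0371 and 0.356 RPKM in B7-H4-null, from 51, 19, 1 and 11 reads. Both B7-H4-null libraries lay below both wild-type libraries, but the gap between the nearest pair was small. The ratio of wild type 2 to B7-H4-null 2 was 1.88, with a 95% interval of 0.850 to 4.37 that includes no difference. Within each genotype the libraries stood apart: wild type 1 was 2.63-fold above wild type 2 (1.53 to 4.71), and B7-H4-null 2 was 9.58-fold above B7-H4-null 1 (1.39 to 412).

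The means of Ces2g were 1.21 ± 0.770 RPKM in wild type (SD, n = 2), against 0.196 ± 0.225 RPKM (n = 2) without B7-H4. Over pooled reads, 70 against 12, wild type was 5.88-fold higher (3.16 to 11.9), an interval of counting error that leaves out the spread between libraries just described. The log2 difference was −0.86. With 1 library at 1 RPKM, Ces2g was below the filter and was not tested.

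Ces2e (gene ID 234673, 104926260 to 104934672), a lipid and drug hydrolase of intestine and liver, was at 0.183 and 0.112 RPKM in wild type against 0 and 0.0343 RPKM in B7-H4-null. These are 8 reads against 1, a ratio of 8.06 whose interval runs from 1.08 to 358. Ces2a and Ces2c, enzymes of liver and intestine, had no read in any library, which allows up to 0.142 to 0.162 RPKM for Ces2a and 0.141 to 0.162 RPKM for Ces2c. In all, 4 of the 9 members (Ces1d, Ces1g, Ces2e and Ces2g) had both B7-H4-null libraries below both wild-type libraries and none had both above. Among all genes tested, 28.0% were below and 16.0% above in this way. Only Ces1d is among those genes, and since the contrast chose the family nothing is read from the members' count.

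Ces1d made up most of the summed level of the family in 3 libraries. The 9 members summed to 18.97 and 13.6 RPKM in the wild-type libraries against 0.577 and 0.623 RPKM in the other genotype. The share of Ces1d was 89.1%, 92.9% and 93.6% in wild type 1, wild type 2 and B7-H4-null 1, and 30.2% in B7-H4-null 2. Without Ces1d the sums were 2.07 and 0.968 RPKM against 0.0371 and 0.435 RPKM, from 59, 26, 1 and 13 reads.

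The balance between Ces1d and Ces2g, compared per length within a library, was not the same in the B7-H4-null libraries. The ratio of Ces1d to Ces2g in RPKM was 9.61 (7.14 to 13.2) in wild type 1 and 18.8 (11.8 to 31.8) in wild type 2. It was 14.5 in B7-H4-null 1, with an interval of 2.07 to 631 from 10 reads against 1. In B7-H4-null 2 it was 0.529 (0.123 to 1.78), from 4 reads against 11. The interval of B7-H4-null 2 lies below those of the other 3 libraries, and the library has no partner of its genotype that shares this value.

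The 11 carboxylesterase genes outside the set were also near 0. Ces1b had 3 reads in wild type 1 with 2 in B7-H4-null 2, and Ces2h had 3 reads in each of the same libraries. Ces5a and Ces4a had 1 read each, in wild type 2. The remaining 7, Ces1a, Ces1h, Ces2b, Ces2d-ps, Ces2f, Ces3a and Ces3b, had none, and 0 of the 11 reached the level for testing. Ces1d was therefore the only gene of its cluster above 0.2 RPKM in any library.

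The genes around the clusters had no part in choosing the members and were tested. Within 1 Mb of the Ces1 and Ces5a cluster lie 24 other genes, 12 of them tested. Of these 1 was called higher in B7-H4-null and 0 lower, where the rate over all genes was 0.0991%. Without overlap between the genotypes, 3 were lower and 4 were higher, where the shares over all genes tested were 28.0% and 16.0%. The median log2 difference was 0.10 against −0.09 for all genes tested. The nearest tested gene, Lpcat2, a lysophospholipid acyltransferase 246.8 kb from Ces1d (the gap between the nearest ends), was at 9.75 and 6.94 RPKM in wild type against 10.7 and 8.12 RPKM in B7-H4-null (limma, adjusted p = 0.847, limma). The groups overlapped for Lpcat2.

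The called neighbour was Mt2, a metallothionein 974.8 kb from Ces1d. It was at 4.26 and 9.41 RPKM in wild type against 344 and 169 RPKM in B7-H4-null. The log2 difference was 5.03 ± 0.453 (SE), with adjusted p = 0.0219. The call was lost without B7-H4-null replicate 1 (adjusted p = 0.222), without B7-H4-null replicate 2 (0.0609) and without a filter on low values (0.257), with log2 differences of 4.52, 5.54 and 5.03. Its neighbour Mt1 was at 318 and 426 RPKM against 950 and 891 RPKM, with adjusted p = 0.207. Nlrc5, a regulator of MHC class I genes 1236.5 kb from Ces1d, was at 0.426 and 0.478 RPKM against 1.61 and 1.76 RPKM, with adjusted p = 0.319. Mt1 and Nlrc5 did not overlap between the genotypes but did not pass the test. Nlrc5 reached 1 RPKM through the B7-H4-null libraries alone, so a higher level there without overlap was a condition of its being tested.

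**Figure D3:**
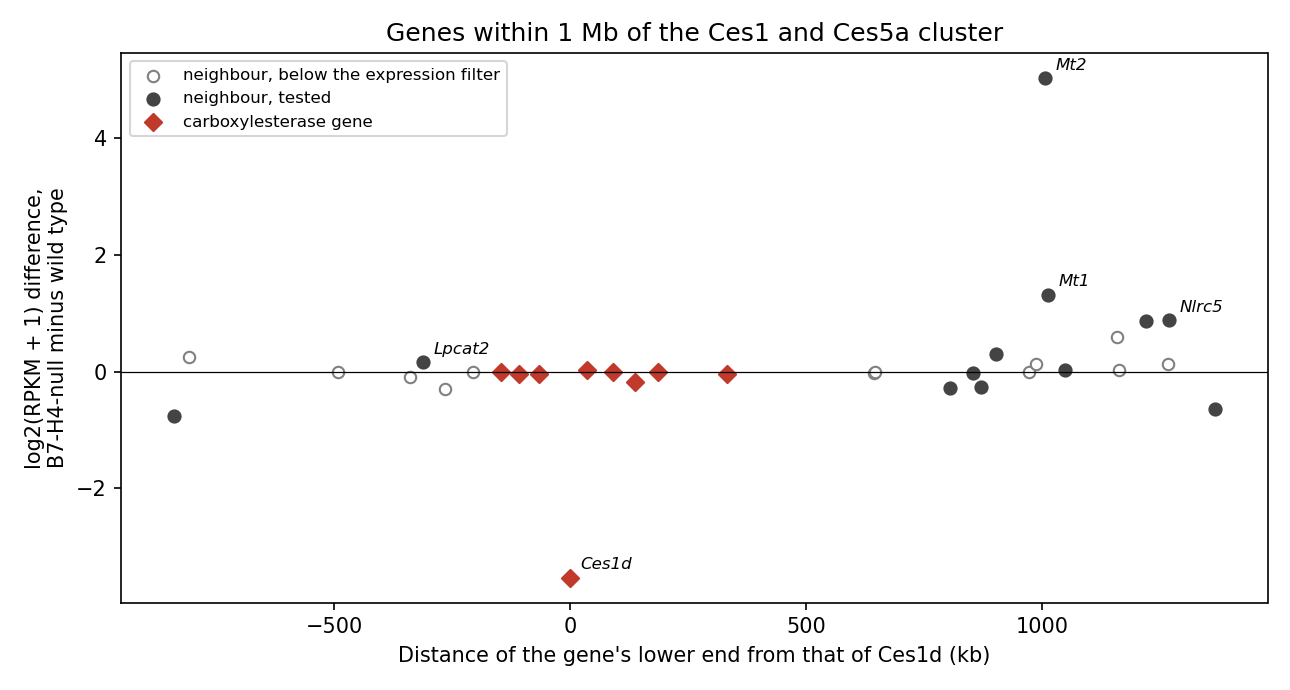
Differences of genes around the Ces1 and Ces5a cluster. The horizontal axis is the distance in kb between the lower ends of the gene and of Ces1d, and the vertical axis the log2(RPKM + 1) difference, B7-H4-null minus wild type; filled circles are tested neighbours, open circles neighbours below the expression filter and diamonds carboxylesterase genes. Ces1d is at −3.53, the other carboxylesterase genes lie near 0, and Mt2 is at 5.03.

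Around the Ces2, Ces3 and Ces4a cluster, 71 other genes lie within 1 Mb, 42 of them tested. None was called by limma, and 8 had an unadjusted p under 0.05, a level whose share over all genes is not given. Without overlap 8 were lower and 7 higher, where all genes tested gave 28.0% and 16.0%. The median log2 difference was 0.05. Plekhg4 was at 0.118 and 0.217 RPKM in wild type against 2.17 and 2.35 RPKM in B7-H4-null (limma, adjusted p = 0.146). Carmil2, an actin capping regulator, was at 6.34 and 6.95 RPKM against 18.1 and 15.5 RPKM (adjusted p = 0.179). Cmtm3 was at 2.75 and 2.74 RPKM against 5.58 and 5.61 RPKM (adjusted p = 0.319). All 3 were higher in B7-H4-null without overlap, and none passed the test. Plekhg4, among the 7 higher, reached 1 RPKM through the B7-H4-null libraries alone. It had to be higher there without overlap to be tested, so nothing is read from its direction.

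Genes that work beside carboxylesterases were read from lists of neutral lipid hydrolases, other esterases, xenobiotic enzymes, nuclear receptors and ER retrieval. Of 159 genes listed, including the 11 other carboxylesterases, 106 were tested. No gene was called by limma, and 17 had an unadjusted p under 0.05. For such counts, here and per list, the share over all genes tested is not given, so they are read without a background. Among those tested, 28 were lower and 20 higher in B7-H4-null without overlap, and the median log2 difference was −0.06 against −0.09 for all genes tested. Over all genes tested 28.0% were lower and 16.0% higher in this way, the shares to set beside the counts of each list below.

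**Figure D4:**
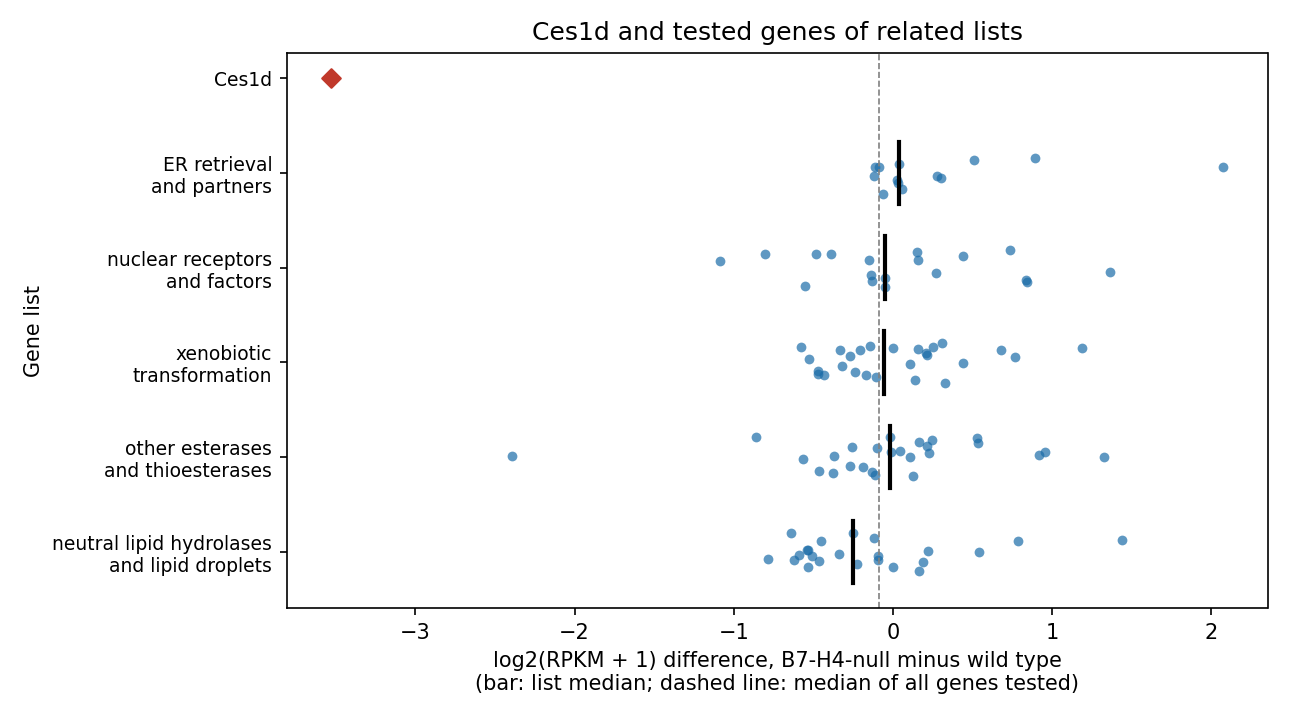
Differences of genes related in function to carboxylesterases. The horizontal axis is the log2(RPKM + 1) difference, B7-H4-null minus wild type; each circle is a tested gene of the list named on the vertical axis, the bar is the list's median, the dashed line the median of all genes tested (−0.09) and the diamond Ces1d (−3.53). The list medians lie between −0.25 and 0.04.

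The neutral lipid list holds lipid hydrolases, some of which, like Ces1d, break down stored fat, with the proteins of the lipid droplet. Phospholipases and enzymes that make stored lipid (Dgat1, Dgat2, Soat1 and Soat2) are also in the list, so its counts are not those of fat breakdown alone. Of its 32 genes 23 were tested, 0 were called, 10 were lower and 3 higher without overlap, and the median was −0.25. At an unadjusted p under 0.05 there were 4. Lpl, lipoprotein lipase, was at 2.31 and 1.86 RPKM in wild type against 3.91 and 13.2 RPKM in B7-H4-null (limma, adjusted p = 0.334). Daglb, a diacylglycerol lipase, was at 20.04 and 13.97 RPKM against 9.73 and 8.90 RPKM (adjusted p = 0.336). Pnpla8, a calcium-independent phospholipase, was at 8.52 and 10.3 RPKM against 6.05 and 5.25 RPKM (adjusted p = 0.381). Lpl was thus the higher and Daglb and Pnpla8 the lower in B7-H4-null, each without overlap and without passing the test.

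Of 36 other esterases and thioesterases 26 were tested, 0 were called, 7 were lower and 4 higher without overlap, and the median was −0.02. Again 4 had an unadjusted p under 0.05. The list also holds serine peptidases (Prep, Dpp4, Dpp8 and Dpp9). Dpp4, a dipeptidyl peptidase, was at 0.0782 and 0.447 RPKM in wild type against 1.65 and 2.69 RPKM in B7-H4-null (limma, adjusted p = 0.240). Bphl, a serine hydrolase that activates ester prodrugs, was at 21.4 and 17.1 RPKM against 39.5 and 34.6 RPKM (adjusted p = 0.295). Pafah1b3, a subunit of platelet-activating factor acetylhydrolase, was at 3.17 and 5.09 RPKM against 7.81 and 9.88 RPKM (adjusted p = 0.320). These 3 were higher in B7-H4-null without overlap. Dpp4 reached 1 RPKM through the B7-H4-null libraries alone. It had to be higher there without overlap to be tested, so nothing is read from its direction. Pla2g7, a platelet-activating factor hydrolase with the largest log2 difference of the tested genes of this list (−2.39), was lower without overlap, at 3.86 and 28.9 RPKM against 0.776 and 1.98 RPKM (adjusted p = 0.329).

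Of 40 xenobiotic enzymes 26 were tested, 0 were called, 7 were lower and 6 higher without overlap, the median was −0.05, and 2 had an unadjusted p under 0.05. Gstt2, a glutathione transferase, was at 7.27 and 6.03 RPKM in wild type against 13.6 and 19.5 RPKM in B7-H4-null (limma, adjusted p = 0.231). Mgst3, a microsomal glutathione transferase, was at 10.4 and 8.08 RPKM against 12.7 and 20.8 RPKM (adjusted p = 0.395). Nat2, an arylamine acetyltransferase, was at 6.30 and 5.43 RPKM against 3.82 and 3.70 RPKM (adjusted p = 0.459).

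Nuclear receptors and partner factors set carboxylesterase levels in liver. Of 26 listed 18 were tested, 0 were called, 4 were lower and 3 higher without overlap, the median was −0.05, and 5 had an unadjusted p under 0.05. Ppargc1b, a coactivator of lipid and mitochondrial genes, was at 0.512 and 0.385 RPKM in wild type against 2.44 and 3.04 RPKM in B7-H4-null (limma, adjusted p = 0.178). Rxra, the shared partner of many such receptors, was at 7.65 and 9.002 RPKM against 2.94 and 3.86 RPKM (adjusted p = 0.240). Cebpa, a factor of both myeloid and liver cells, was at 46.9 and 63.7 RPKM against 105.8 and 92.2 RPKM (adjusted p = 0.328). Ppargc1b and Cebpa were the higher and Rxra the lower in B7-H4-null, and none passed the test. Ppargc1b reached 1 RPKM through the B7-H4-null libraries alone. So did Nr0b2, at 0.529 and 0.630 RPKM in wild type against 1.52 and 1.74 RPKM in B7-H4-null. Both had to be higher there without overlap to be tested, so nothing is read from their direction.

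The ER list holds the receptors that return escaped luminal proteins, with chaperones and other residents of the organelle. The level differed widely among its genes: the retrieval receptor Kdelr1 was at 52.1 and 75.8 RPKM in wild type against 51.2 and 70.5 RPKM in B7-H4-null, and its relative Kdelr3, at 1.60 and 0.641 RPKM against 0.3003 and 0.392 RPKM, was not tested. Of 14 genes 13 were tested, 0 were called, 0 were lower and 4 higher without overlap, the median was 0.04, and 2 had an unadjusted p under 0.05. Hspa5, the main ER chaperone, was at 748 and 299.9 RPKM in wild type against 4772 and 834 RPKM in B7-H4-null (limma, adjusted p = 0.383). Calr, a calcium-binding ER chaperone, was at 779 and 523 RPKM against 1539 and 917 RPKM (adjusted p = 0.398). Ero1a, an ER oxidase, was at 41.4 and 36.5 RPKM against 58.8 and 52.8 RPKM (adjusted p = 0.468). B7-H4-null replicate 1 held the highest value of Hspa5 and of Calr. Gusb, the beta-glucuronidase held by egasyn and named here for that link rather than by rank, was at 202 and 216 RPKM against 171 and 215 RPKM, with overlap (adjusted p = 0.880).

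The labelled cell type and the cells that usually express Ces1d were compared by marker lists. Of the 78 markers of the 9 lists 32 were tested, none was called by limma, and 17 had an unadjusted p under 0.05. The share of all genes tested at that unadjusted level is not given, so such counts have no background beside them. Of the 12 hepatocyte genes, Apoc3, Serpina1c, Fgb and Cyp2e1 were at 0 in all libraries, 8 were under 1 RPKM in all, and Alb was at 0 in all but B7-H4-null 2 (0.0905 RPKM). The summed hepatocyte level, 1582 and 1768 RPKM in wild type against 1268 and 1736 RPKM in B7-H4-null, was nearly all Hp, which myeloid cells also express (1572 and 1746 against 1247 and 1720 RPKM). Trf, transferrin, was at 7.14 and 20.6 RPKM against 18.1 and 14.9 RPKM. Of the 10 adipocyte genes, Plin1 and Lep were at 0 in all libraries and 7 were under 1 RPKM in all. Their sum, 19.8 and 20.04 RPKM against 14.0 and 15.0 RPKM, was mostly Lipe, hormone-sensitive lipase (16.8 and 18.03 against 10.01 and 11.9 RPKM). Lipe was lower in B7-H4-null without overlap (adjusted p = 0.382). Car3 went the other way, at 0.449 and 0.655 RPKM in wild type against 2.003 and 2.11 RPKM in B7-H4-null (limma, adjusted p = 0.293). It reached 1 RPKM in B7-H4-null alone, so it had to be higher there to be tested. Of the 3 adipocyte genes tested, 1 was lower and 1 higher without overlap, where all genes tested gave 28.0% and 16.0%. With untested genes counted, 3 of the 10 were lower and 2 higher. The part of the hepatocyte and adipocyte genes in the difference of Ces1d was not tested.

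Neutrophil genes moved in the same direction as Ces1d. The 12 summed to 25149 and 15153 RPKM in wild type against 7380 and 9180 RPKM in B7-H4-null, and all of the 12 except Csf3r (11 of 12) were lower in B7-H4-null without overlap. Over all genes tested 28.0% were lower in this way. None of the 12 neutrophil genes was called, 10 had an unadjusted p under 0.05, and none was at 0. Their part in the difference of Ces1d was not tested. The 13 macrophage and monocyte genes summed to 1047 and 1228 RPKM in wild type against 1414 and 1654 RPKM in B7-H4-null. Most of that sum was Ly6c2, at 843 and 1079 RPKM against 1201 and 1458 RPKM. Of the 7 tested, 1 was lower and 3 higher without overlap, where the shares over all genes tested were 28.0% and 16.0%. With the untested genes, below the expression filter, counted as well, 5 of the 13 were lower and 3 higher. None of the 13 was at 0 in all libraries. Cd68 was at 60.5 and 63.4 RPKM against 147 and 139 RPKM, while Vcam1 was at 93.04 and 30.01 RPKM against 12.6 and 1.12 RPKM. The 3 sort markers summed to 351 and 307 RPKM in wild type against 217 and 215 RPKM in B7-H4-null, 2 of the 3 lower without overlap, and their part was not tested either.

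Of the remaining lists, only the erythroid one summed to a low level. The 7 erythroid genes in the table summed to 1.16 to 3.79 RPKM. The B cell genes, with Pax5 at 0, summed to 36.3 and 46.2 RPKM in wild type against 58.9 and 61.5 RPKM in B7-H4-null. Nearly all of this was Cd79b (35.4 and 45.5 against 58.7 and 60.7 RPKM), and the other 5 were under 1 RPKM in all libraries. The T and NK cell genes summed to 31.6 and 29.7 RPKM against 21.7 and 39.5 RPKM, nearly all Nkg7 (31.4 and 29.1 against 21.02 and 39.2 RPKM). The endothelial and stromal genes summed to 27.7 and 30.1 RPKM against 58.1 and 39.5 RPKM, mostly Pecam1 (16.4 and 17.7 against 37.1 and 31.0 RPKM) and Pdgfrb (8.29 and 10.6 against 19.8 and 6.82 RPKM).

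**Figure D5:**
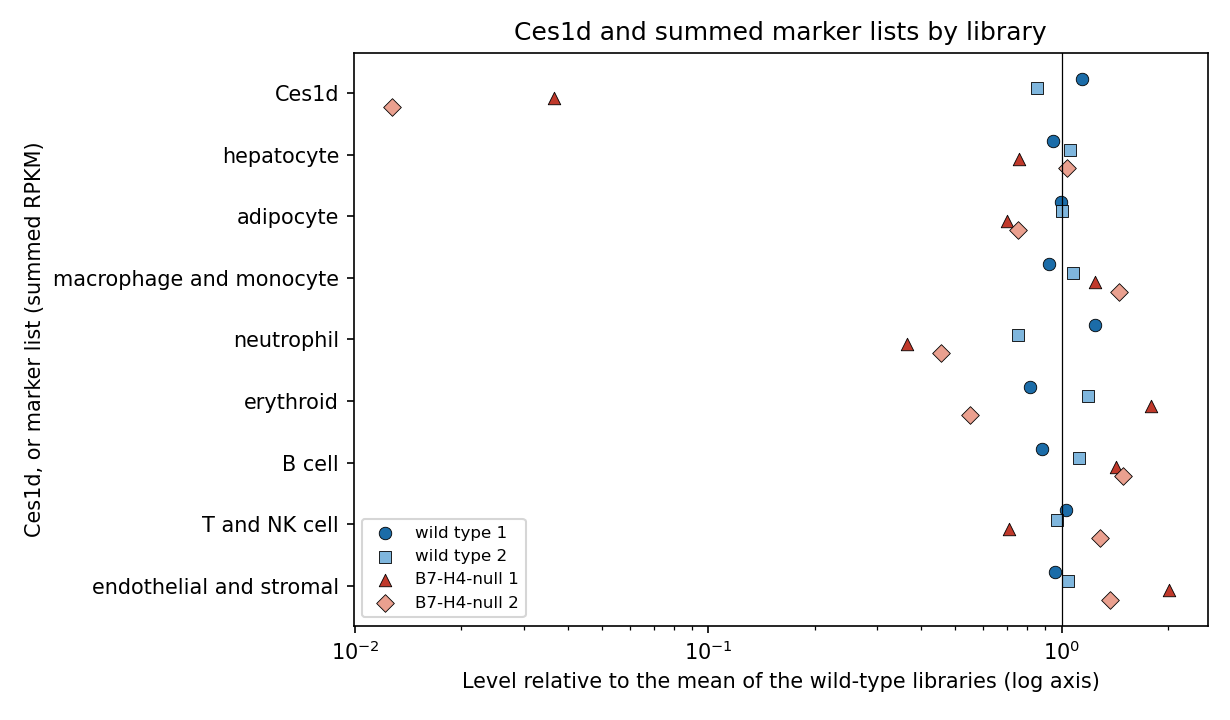
Ces1d and summed marker lists in each library. The horizontal axis, logarithmic, is the level divided by the mean of the wild-type libraries, and each point is 1 library; marker lists are sums of RPKM over the list. The neutrophil sum is lower in B7-H4-null without overlap (7380 and 9180 against 25149 and 15153 RPKM), and the hepatocyte sum overlaps between the genotypes.

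The genes whose profile over the 4 libraries was most like that of Ces1d were ranked by the Euclidean distance between mean-centred log2(RPKM + 1) values, with a median distance of 3.50 over all genes tested. The likeness is a description over 4 libraries and follows the same genotype contrast. Psma8, a proteasome subunit best known from testis, was closest at 0.523, with 8.15 and 8.80 RPKM in wild type and 0 in both B7-H4-null libraries. Hpse2, heparanase 2, followed at 0.637, with 12.01 and 8.65 RPKM against 0.635 and 0.383 RPKM. Fnbp1l, an adaptor of actin assembly at membranes, was at a distance of 0.647, with 83.3 and 37.9 RPKM against 6.43 and 2.95 RPKM. Skida1, a SKI/DACH domain protein, was at 0.651, with 11.2 and 14.8 RPKM against 0.0243 and 0.0212 RPKM. Hnmt, which methylates histamine, was at 0.879, with 9.02 and 6.02 RPKM against 0.129 and 0.338 RPKM. As with Ces1d, each was high in both wild-type libraries and low in both B7-H4-null libraries.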

How the data were processed

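RNA from sorted LSCs was made into libraries with the TruSeq RNA v2 kit and read on a HiSeq2500, per the labels' protocols. The authors deposited 1 table of RPKM values, a column per library. The submitters' processing notes name TopHat2 2.0.12 and GRCm38. Not given in the sources used here were the counting program, its annotation, strand setting and treatment of multiply matching reads. The unit was taken from the values: low values are whole multiples of a step set by gene length, which gave the library totals, and 14595 of the 14608 genes above 0 in all libraries came out as whole reads within 0.001 read. Reads were recovered only to show depth. Intervals of read ratios are exact 95% binomial intervals and, like the floor of 3 reads, cover counting error only.

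An NCBI gene table (GRCm38.p6) gave symbols and gene coordinates (25275 IDs matched, 1904 not), and the sequences are from GENCODE M21 (GRCm38), aligned with Biopython 1.88. The 12107 genes that reached 1 RPKM in at least 2 libraries were tested with limma 3.58.1 (R 4.3.3) on log2(RPKM + 1), pseudocount 1 RPKM, in a model of genotype alone with a mean-variance trend, two-sided tests and Benjamini-Hochberg adjustment over all 12107. The fit was also run on simulated reads with the same spread setting for every gene, as a check of the code alone. That run cannot show the error rate at the real spread between these libraries. Whether replicates are separate animals is not stated by the labels, so the p-values reflect only the spread among these 4 samples, possibly a technical one. Exact permutation of 2 against 2 samples cannot reach 0.05, and none was used.

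The members and lists were chosen with earlier results of these data known. Named are all members, other carboxylesterases with any read, called genes and up to 3 genes with the smallest p per list or neighbourhood (mean of 1 RPKM or more in 1 group), the 5 genes most like Ces1d (gene models passed over), and up to 3 markers per list. Lpcat2 (the nearest tested neighbour), Gusb, Pla2g7, Nr0b2, Kdelr1, Kdelr3, Alb, Car3, Csf3r and markers at 0 were named outside this rule, after their values were seen. Alternatives were a pseudocount of 0.1, no filter, a filter at 5 RPKM, median-ratio and quantile scaling, no trend, a replicate block and leaving out each library.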

Additional observations from a re-analysis of the deposited data

How the results depend on the processing

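The family was chosen on this contrast, so the values of its members over refits of the same libraries are descriptions and no support. The log2 difference of Ces1d was −5.10 with a pseudocount of 0.1 RPKM, and its call was lost with no filter on low values (−3.53) and without either B7-H4-null library. Over the fits that left out 1 library the difference ran from −3.73 to −3.33. Such a fit leaves 1 sample in a group, which is assumed to vary like the other group. Over all genes, 12 calls became 0 with no filter (1887 genes at an unadjusted p under 0.05), 21 with the replicate block, and 0 to 56 when 1 library was left out: 56 without wild type 1, 29 without wild type 2 and 0 without B7-H4-null 1 or 2 (937 and 1476 at an unadjusted p under 0.05). The deviations of replicates 1 of the genotypes correlated at r = 0.247 across genes, but with 2 pairs the samples share only a number. Beside the clusters, 1 call became 0 with no filter and ranged from 0 to 1 when 1 library was left out. In the related lists, calls ranged from 0 to 1, the one being Pla2g7 lower without wild type 1 (adjusted p = 0.00504). No other member changed sign in any alternative, and Ces2g ran from −2.26 to −0.49. Every member value rests on under 100 reads per genotype except that of Ces1d in wild type.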
